A study of Homo sapiens with 6 samples.

Results

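Sialyltransferases are the Golgi enzymes that add sialic acid to the ends of sugar chains, and 10 of their genes were examined in naive and primed human embryonic stem cells. The genes were ST6GAL1, ST6GAL2, ST3GAL1, ST3GAL2, ST3GAL3, ST3GAL4, ST3GAL5, ST3GAL6, ST8SIA1 and ST6GALNAC6. They were chosen by name, as the enzyme that makes the surface epitope CD75 and a selection of its relatives that act on galactose or on gangliosides. The list does not hold every sialyltransferase of gangliosides. The rule used no measured values, although earlier results of these data were known when it was made. They were 10 of 48183 named features in the deposited table, and all 10 were among the 26497 features with enough counts to be tested.

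Bulk RNA-seq of 6 libraries was examined. All cells carried the EOS-GFP reporter, a fluorescent gene under the distal enhancer of OCT4 that marks the naive state, and the GEO labels name the parental line as H1 whereas the text of the study names H9. The 4 naive libraries came from cells converted with AICAR, an activator of the energy sensor AMPK (2 libraries), with doxycycline in the CA-p38 line (1), or with the histone deacetylase inhibitor VPA (1). The CA-p38 line carries a constitutively active p38 kinase, whose piggyBac vector is switched on by doxycycline. When the line was made, doxycycline was given to induce the mCherry on that vector, and mCherry-positive cells were sorted. AICAR and doxycycline were added in PXGL medium, which contains the inhibitors PD0325901, XAV939 and Go6983 together with LIF, while VPA was given in Ndiff227 with PD0325901 and LIF. After conversion the cells were passaged in PXGL and were sorted by FACS as CD75+ and SUSD2+. For this culture the labels name mouse embryonic fibroblast feeders, and the study also describes feeder-free culture of AICAR-induced and CA-p38 cells. The 2 primed libraries were the parental lines not put through conversion, primed EOS and primed CA-p38, grown in StemFit AK02N on Matrigel without that sort. The 2 AICAR libraries share treatment and line and are listed in the study as successive passages, and no source used here says that they, or any other cultures, were independent repeats. The p-values therefore measure the spread between these libraries. With the AICAR libraries summed to 1, the 10 genes had the same calls, 1 higher and 4 lower.

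Sialyltransferases take sialic acid from its activated form, CMP-sialic acid, and are named for the linkage they make. ST6GAL enzymes join it through an alpha-2,6 bond to the galactose of N-acetyllactosamine, and that structure is what antibodies to CD75 bind. ST3GAL enzymes join it to galactose through an alpha-2,3 bond, so that ST3GAL3, ST3GAL4 and ST3GAL6 compete for the same lactosamine ends. ST3GAL5, ST8SIA1 and ST6GALNAC6 act on glycolipids and build gangliosides. Naive human cells are commonly isolated by antibodies to CD75 and SUSD2. All naive libraries had been gated in this way and no primed library had, and ST6GAL1 and ST6GAL2 can both make the CD75 structure. For all 10 genes, the effects of the sort, the medium and the state cannot be told apart.

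ST6GAL1 and ST6GAL2 make the same linkage and moved in opposite directions, so stretches of their promoters are shown first. Sequences were taken from RefSeq (GRCh38.p14), which had an entry at the start of the MANE Select transcript, the reference transcript of a gene, for 7 of the 10 genes. The 250 bases before that start were searched on both strands. The motifs were chosen after these sequences had been seen. They were the octamer ATTTGCAT bound by POU proteins, the TFAP2 motif GCCNNNGGC, the GC box GGGCGG and the CACCC box, and the GC box and the CACCC box may overlap. Capitals mark the octamer in the first stretch and the TFAP2 motif in the other two, and each runs 5′ to 3′ on the strand of its gene.
ST6GAL1, plus strand, chr3:186930470-186930499: ttcgcaactctATTTGCATacggaggcgac
ST6GAL1, plus strand, chr3:186930417-186930446: gcgcggtgtgGCCGGTGGCgagaggtggag
ST6GAL2, minus strand, chr2:106886332-106886361: gaggactcgaGCCTGCGGCaggacgactcc

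The octamer of ST6GAL1 lay from 45 to 38 bases before the start, in a stretch that is also exonic in a longer annotated transcript of the gene. Among 34788 distinct promoters of the same length, 1.62% held the octamer, and ST6GAL1 was the only one of the 7 genes with it. The TFAP2 motif lay 99 to 91 bases before the start of ST6GAL1 and 184 to 176 bases before that of ST6GAL2, and 19.8% of all promoters held it. ST6GAL1 also held 2 GC boxes, which 42.6% of promoters had, and these letters were not in the ST6GAL2 window. The CACCC box, present in 54.7% of all promoters, occurred 2 times for ST6GAL1 and 1 time for ST6GAL2. All printed stretches lie inside the annotated bounds of their genes, and counts per gene do not show which start these cells used. These matches describe letters and no binding was measured.

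Of the 10 genes, ST6GAL1 was higher in naive libraries, ST6GAL2, ST3GAL2, ST3GAL3 and ST6GALNAC6 were lower, and ST3GAL1, ST3GAL4, ST3GAL5, ST3GAL6 and ST8SIA1 did not pass the test. The test was the quasi-likelihood test of edgeR on raw counts with TMM scaling, 4 naive against 2 primed libraries, with Benjamini-Hochberg adjustment over all features and a threshold of 0.05. The test called 53.1% of all tested features, 26% higher and 27% lower in naive libraries, so that 5 calls among 10 genes is close to the background. Naive and primed libraries did not overlap for 6 of the genes, 2 above and 4 below, against 64.9% of all features. The median absolute log2 fold change was 0.46 over the 10 genes and 0.85 over all features. On this scale the median log2 fold change of all features was 0.11, and it was 0.21 when libraries were scaled by their totals alone.

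**Figure D1:**
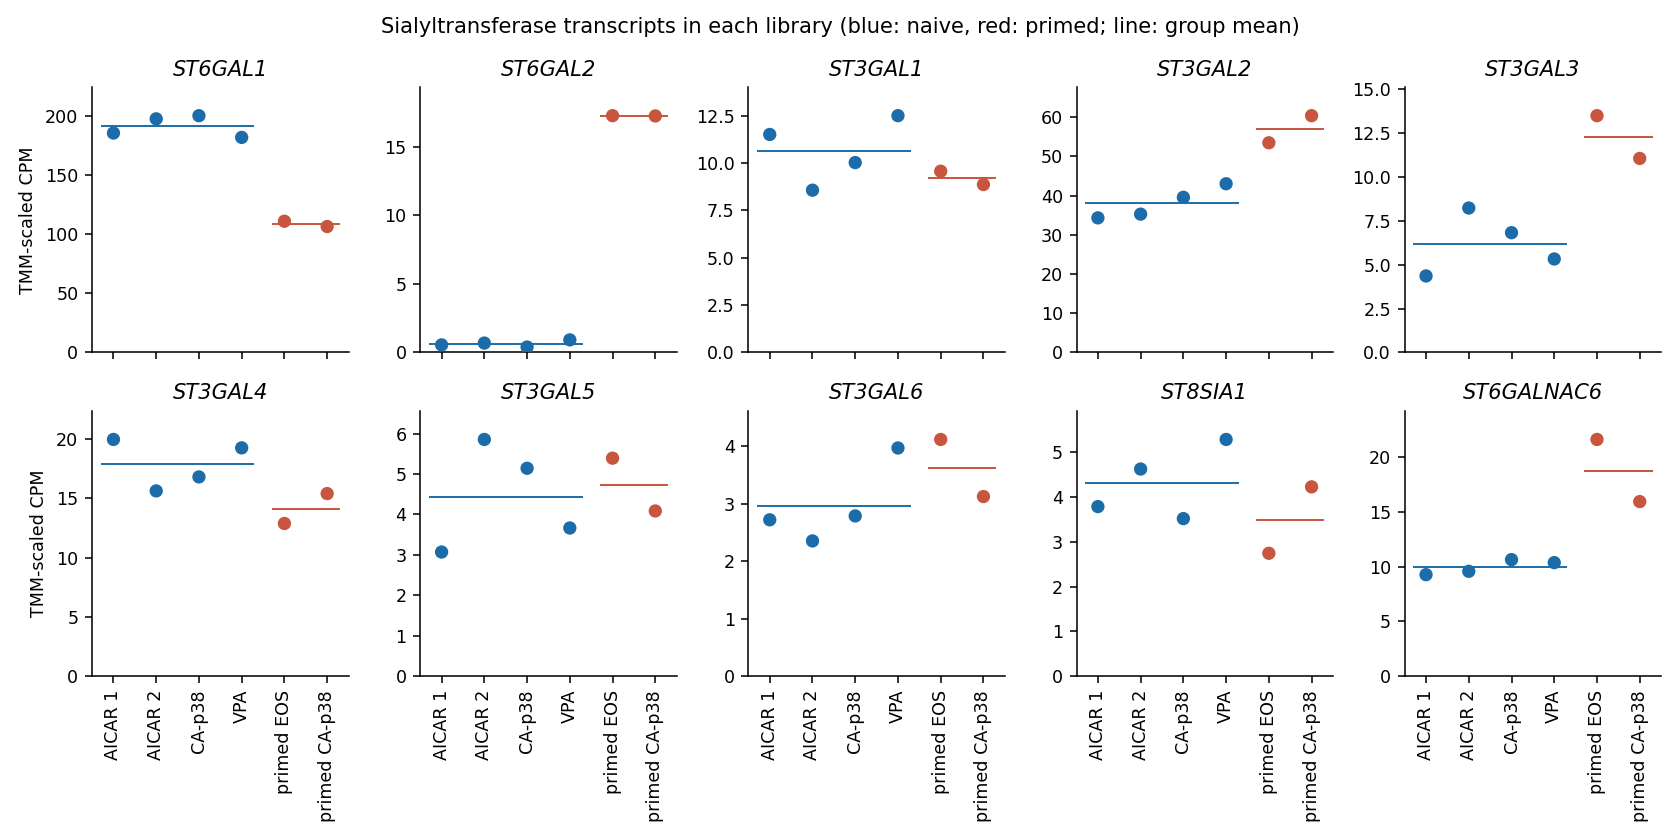
Level of each of the 10 sialyltransferase genes in every library, in TMM-scaled CPM on linear axes that start at 0. Points are libraries (blue naive, red primed) and horizontal lines are group means. ST6GAL1 sits above the primed libraries in all 4 naive libraries, and ST6GAL2 is near 0 there against 17.2 CPM in both primed libraries.

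ST6GAL1 (ENSG00000073849, chromosome 3, 186930325 to 187078553, plus strand) encodes the main alpha-2,6 sialyltransferase of N-glycans. In CPM, counts scaled to a common TMM-adjusted library size, VPA naive cells were at 182, CA-p38 naive cells at 200.4, and the AICAR libraries at 186 (AICAR 1) and 198 (AICAR 2). The parental lines were at 111 (primed EOS) and 107 (primed CA-p38). All naive libraries lay above both primed libraries, and within each state the levels were close together, with a coefficient of variation of 4.69% over the naive libraries. The mean level was 191 ± 8.97 CPM over the naive (SD, n = 4) and 109 ± 3.16 CPM over the primed libraries (SD, n = 2). The log2 fold change was 0.81 with a standard error of 0.0991, or 1.76-fold higher (edgeR adjusted p = 1.53e-05). The library-by-library log2 fold over the own parental primed line was 0.74 for AICAR 1, 0.83 for AICAR 2, 0.71 for VPA and 0.91 for CA-p38, so the direction was shared by all 3 ways of induction. Primed cells, which were not selected for CD75, had 5498 and 5215 counts of this transcript. No other annotated gene overlaps ST6GAL1.

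ST6GAL2 (ENSG00000144057, chromosome 2, 106801600 to 106887108, minus strand) encodes the second alpha-2,6 enzyme, known mainly from brain. The naive level was 0.917 CPM with VPA, 0.396 with CA-p38, and 0.552 and 0.684 with AICAR (libraries 1 and 2), whereas both primed libraries were at 17.2 CPM. The naive values rest on 48, 20, 30 and 34 counts in that order, while the primed libraries held 854 and 843. The groups were far apart, and the naive libraries spread over 2.32-fold with VPA highest and CA-p38 lowest. The log2 fold change was -4.75 with a standard error of 0.28, that is, 26.9-fold higher in primed libraries (edgeR adjusted p = 1.82e-08). Over its own primed line, the log2 fold was -4.94 for AICAR 1, -4.64 for AICAR 2, -5.41 for CA-p38 and -4.22 for VPA. Its difference was the largest of the 10 genes. An antisense long noncoding RNA and the intronic transcript ST6GAL2-IT1 overlap the gene, and the use of strand in counting is not stated in the sources used here.

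Levels of different genes were set side by side mainly per kilobase of merged exons. On that scale ST6GAL1 made up 56.4% of the summed level of the 10 genes in VPA, 61.1% in CA-p38, and 60.0% and 62.6% in the AICAR 1 and AICAR 2 naive libraries. It made up 36.9% in the primed EOS and 36.3% in the primed CA-p38 library. The share of ST6GAL2 was 0.308% ± 0.106 (SD, n = 4) in naive and 8.94% ± 0.154 (SD, n = 2) in primed libraries. The summed level itself was 28.6 ± 0.719 CPM per kilobase in naive and 26.7 ± 0.482 in primed libraries. The 6 ST3GAL genes together held 32.1% ± 2.41 of the sum in naive and 40.3% ± 2.55 in primed libraries. The level of ST6GAL1 per kilobase was 216 ± 83.8 times that of ST6GAL2 in naive libraries and 4.10 ± 0.115 times in primed libraries. With the longest transcript as the length, the ST6GAL1 share was 64.5% in naive and 43.3% in primed libraries. On that length the ST6GAL2 share was 0.154% and 4.89%, and ST6GAL1 was at 466 and 8.85 times the level of ST6GAL2. The summed level was then 60.7 ± 1.36 CPM per kilobase in naive and 51.4 ± 1.58 in primed libraries, so its difference between the states depended on the length used.

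**Figure D2:**
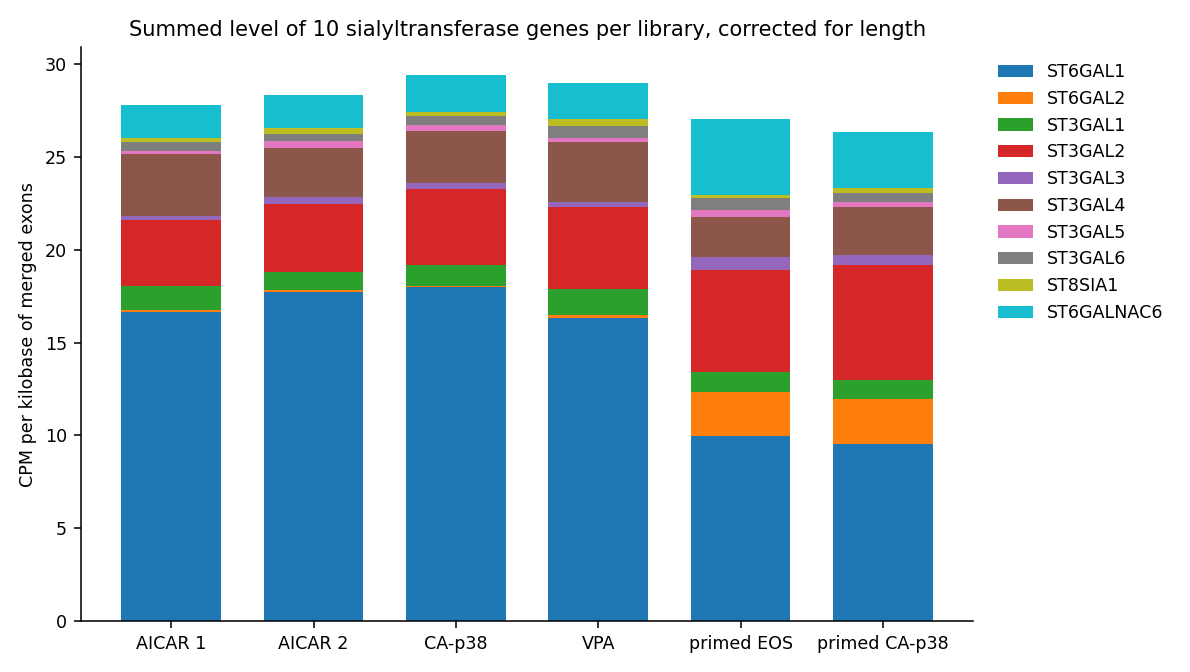
Stacked level of the 10 sialyltransferase genes in each library, in TMM-scaled CPM per kilobase of merged exons, on a linear axis from 0. The stacks reach 28.6 on average in naive and 26.7 in primed libraries, and the ST6GAL1 block is 60.0% of the naive and 36.6% of the primed stack.

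In naive libraries the order of the levels per kilobase was ST6GAL1, ST3GAL2, ST3GAL4, ST6GALNAC6, ST3GAL1, ST3GAL6, ST3GAL3, ST8SIA1, ST3GAL5 and ST6GAL2, with means of 17.2, 3.90, 3.01, 1.88, 1.21, 0.469, 0.318, 0.297, 0.272 and 0.0881 CPM per kilobase. From ST3GAL6 to ST3GAL5, each neighbouring pair overlapped between libraries, and the other neighbours lay apart. In primed libraries the order was ST6GAL1, ST3GAL2, ST6GALNAC6, ST6GAL2, ST3GAL4, ST3GAL1, ST3GAL3, ST3GAL6, ST3GAL5 and ST8SIA1. There the neighbours ST6GAL2 and ST3GAL4, ST3GAL3 and ST3GAL6, and ST3GAL5 and ST8SIA1 overlapped. ST6GAL2 had rank 4 of 10 in primed and rank 10 in naive libraries. The order depended on the length used. With the longest transcript, ST6GAL2 had rank 6 in primed and rank 10 in naive libraries, ST3GAL4 stood before ST3GAL2 in both states, and ST6GALNAC6 stood next to ST6GAL1 in primed libraries. Merged exons lengthen genes with many annotated transcripts, such as ST3GAL3 with 85 and ST3GAL5 with 69, so their levels per kilobase are low estimates.

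ST3GAL2 (ENSG00000157350, chromosome 16, 70375977 to 70439237, minus strand) encodes an alpha-2,3 enzyme for glycolipids and O-glycans that can finish the stage-specific antigen SSEA-4. VPA naive cells were at 43.0 CPM, CA-p38 naive cells at 39.5, AICAR 1 at 34.3 and AICAR 2 at 35.3. Primed EOS was at 53.4 CPM, and primed CA-p38 at 60.3. All naive libraries were below both primed libraries. This gave a log2 fold change of -0.58 with a standard error of 0.128 (edgeR adjusted p = 0.00195). VPA cells were nearest to their parental line, with a log2 fold of -0.31 over primed EOS, while AICAR 1, AICAR 2 and CA-p38 were at -0.64, -0.60 and -0.61 over theirs.

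ST3GAL3 (ENSG00000126091, chromosome 1, 43705824 to 43931165, plus strand) encodes an alpha-2,3 enzyme for the lactosamine of glycoproteins. In naive cells it was measured at 5.33 CPM after VPA, 6.82 after CA-p38, and 4.36 and 8.23 in AICAR 1 and AICAR 2. In primed cells it was at 13.5 CPM (EOS) and 11.1 CPM (CA-p38). The groups did not overlap. Between the states the log2 fold change was -0.99 with a standard error of 0.247 (edgeR adjusted p = 0.00448). Without primed EOS it was -0.85 and the call was lost (adjusted p = 0.0544). The 2 AICAR libraries were the lowest and the highest of the naive libraries, with AICAR 2 at 1.89 times AICAR 1 (95% binomial interval 1.60 to 2.23 for counting error alone). ST3GAL3 shares its locus with another protein-coding annotation on the same strand and with the antisense RNAs ST3GAL3-AS1 and KDM4A-AS1, which counting may not have kept apart.

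ST3GAL4 (ENSG00000110080, chromosome 11, 126355640 to 126440344, plus strand), another alpha-2,3 enzyme for lactosamine, did not pass the test. Naive levels were 19.3 CPM (VPA), 16.8 (CA-p38), 19.98 (AICAR 1) and 15.6 (AICAR 2), and primed levels were 12.9 (EOS) and 15.4 (CA-p38). All naive libraries lay above both primed ones, by a narrow margin between AICAR 2 and primed CA-p38. The fitted log2 fold change was 0.34 with a 95% interval from -0.02 to 0.70 (edgeR adjusted p = 0.103). With libraries scaled by their totals it was 0.44 and passed (adjusted p = 0.0332). The gene overlaps KIRREL3 on the opposite strand.

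ST3GAL1 (ENSG00000008513), whose enzyme caps the core of O-glycans, was highest with VPA (12.5 CPM) and lowest in the AICAR 2 library (8.57 CPM), while AICAR 1 was at 11.5 and CA-p38 at 10.03 CPM. The primed libraries, at 9.57 and 8.87 CPM, lay inside that range. Its log2 fold change was 0.21 with a 95% interval from -0.23 to 0.64 (edgeR adjusted p = 0.402).

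ST3GAL6 (ENSG00000064225, chromosome 3, 98732236 to 98821201, plus strand), the third lactosamine enzyme of this kind, was at 3.97 CPM with VPA, 2.79 with CA-p38, and 2.72 and 2.35 in the AICAR 1 and AICAR 2 naive libraries. Primed EOS was at 4.12 CPM and primed CA-p38 at 3.13, so the VPA library reached the primed range and the other naive libraries lay below it. The state difference was a log2 fold change of -0.29 with a 95% interval from -0.92 to 0.34 (edgeR adjusted p = 0.421). DCBLD2 and ST3GAL6-AS1 overlap the gene on the opposite strand.

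ST3GAL5 (ENSG00000115525, chromosome 2, 85837120 to 85905199, minus strand) encodes GM3 synthase, the entry point of gangliosides. It was at 3.67 CPM in VPA, 5.14 in CA-p38, 3.07 in AICAR 1 and 5.86 in AICAR 2 naive cells, and the primed lines were at 5.39 (EOS) and 4.09 CPM (CA-p38). The groups overlapped fully. The fit gave a log2 fold change of -0.10 with a 95% interval from -0.74 to 0.54 (edgeR adjusted p = 0.802), and its sign was not stable to scaling or to leaving out AICAR 1 or primed EOS. The 2 AICAR libraries were again the extremes, with AICAR 2 at 1.91 times AICAR 1 (95% binomial interval 1.57 to 2.32). The antisense RNA ST3GAL5-AS1 overlaps the gene.

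ST8SIA1 (ENSG00000111728, chromosome 12, 22063773 to 22437041, minus strand) encodes GD3 synthase, which adds a second sialic acid to GM3. VPA naive cells had 5.29 CPM, CA-p38 naive cells 3.52, AICAR 1 3.79 and AICAR 2 4.63, whereas primed EOS had 2.75 CPM and primed CA-p38 had 4.23. The primed lines themselves differed, with primed EOS at 0.649 times primed CA-p38 (95% binomial interval 0.519 to 0.810). The log2 fold change was 0.30 with a 95% interval from -0.31 to 0.92 (edgeR adjusted p = 0.39). The end of ST8SIA1 overlaps CMAS on the opposite strand, a gene that was lower in naive libraries.

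ST6GALNAC6 (ENSG00000160408, chromosome 9, 127885321 to 127905408, minus strand) encodes an enzyme that adds sialic acid to an inner sugar of gangliosides and of disialyl Lewis structures. All 4 naive libraries were close, at 10.4 CPM (VPA), 10.6 (CA-p38), 9.27 (AICAR 1) and 9.58 (AICAR 2). The primed libraries were at 21.6 CPM for EOS and 15.9 CPM for CA-p38, both above all naive libraries. The log2 fold change was -0.91 with a standard error of 0.172, or 1.88-fold higher in primed libraries (edgeR adjusted p = 0.000606). Over the naive libraries the coefficient of variation was 6.49%, while primed EOS was 1.36 times primed CA-p38 (95% binomial interval 1.24 to 1.49). Another protein-coding annotation overlaps it on the same strand.

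Among the naive libraries, the 10 genes differed in how evenly they were expressed. The highest library was 1.10 times the lowest for ST6GAL1, 1.148 times for ST6GALNAC6, 1.25 times for ST3GAL2 and 1.28 times for ST3GAL4. The ratio was 1.46 for ST3GAL1, 1.502 for ST8SIA1 and 1.69 for ST3GAL6. It was 1.89 for ST3GAL3, 1.91 for ST3GAL5 and 2.32 for ST6GAL2. VPA cells were the highest for 5 of the 10 genes (ST6GAL2, ST3GAL1, ST3GAL2, ST3GAL6 and ST8SIA1). With 1 library for VPA and 1 for CA-p38, differences between ways of induction have no replicate check.

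The other 10 sialyltransferase genes, of the ST6GALNAC and ST8SIA families, held 2 that were higher, 4 that were lower and 4 that did not pass. Of all tested features 26% were called higher and 27% lower, and these shares also apply to the gene lists and markers below. No list was tested as a set. ST6GALNAC1, which makes the sialyl-Tn antigen, ranged from 5.27 to 7.77 CPM in naive libraries and had 2 counts in the primed EOS library and 3 in primed CA-p38. The ratio of pooled naive to pooled primed counts, corrected for depth, was 127 (95% exact interval 54.5 to 393, counting error alone). ST6GALNAC2 was the other gene that was higher. ST8SIA3, known mainly from brain, had 1 count in VPA, 9 in CA-p38, 12 in AICAR 1 and 0 in AICAR 2 naive cells, whereas primed EOS was at 15.1 CPM and primed CA-p38 at 18.0 CPM. Its log2 fold change was -7.26 with a standard error of 0.531 (edgeR adjusted p = 1.39e-07). The other genes that were lower were ST6GALNAC4, ST6GALNAC5 and ST8SIA2.

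**Figure D3:**
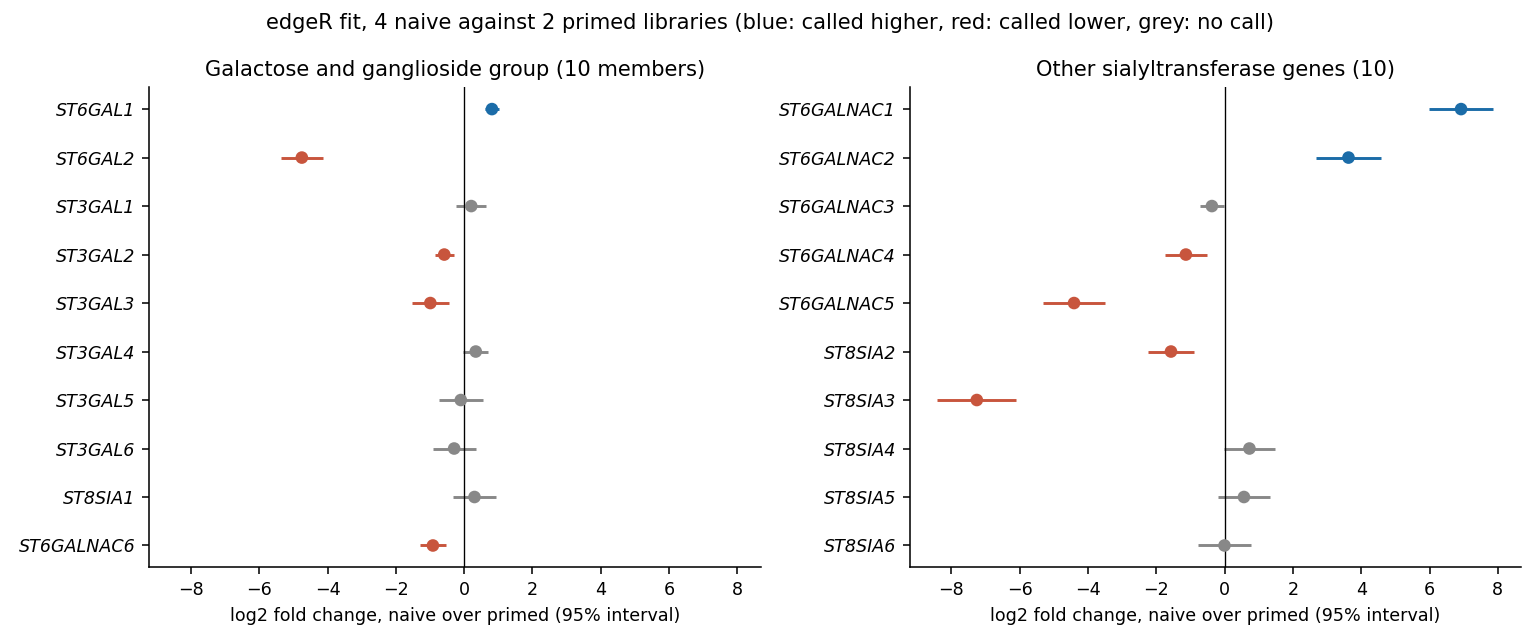
Log2 fold change of naive over primed libraries with its 95% interval from the edgeR fit, for the 10 genes described here (left) and the other 10 sialyltransferase genes (right). Blue was called higher, red lower and grey not called. The ST6GAL1 point lies at 0.81 and the ST6GAL2 point at -4.75, while ST6GALNAC1 and ST8SIA3 lie farthest out on the right panel.

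Sialic acid has to be made and activated before any of these enzymes can use it. Of 5 genes for this supply, NANS was higher, GNE and CMAS were lower, and NANP and SLC35A1 did not pass the test. Over all tested features, 53.1% were called in either direction. GNE, the bifunctional enzyme that opens the pathway, ranged from 2.34 to 3.88 CPM in naive libraries against 22.0 and 24.03 CPM in primed libraries. Its log2 fold change was -2.85 with a standard error of 0.206 (edgeR adjusted p = 1.23e-07). CMAS, which activates sialic acid to CMP-sialic acid, ranged from 7.06 to 12.2 CPM against 71.0 and 67.0 CPM. Its log2 fold change was -2.81 with a standard error of 0.174 (edgeR adjusted p = 2.90e-08). All naive libraries lay below both primed libraries for both genes. NANS, which condenses the sugar precursor with phosphoenolpyruvate, was at 83.1 to 109 CPM in naive and at 65.3 and 56.7 CPM in primed libraries, with a log2 fold change of 0.65 (edgeR adjusted p = 0.00105). NANP, the phosphatase of the next step, had a log2 fold change of -0.33 (95% interval -0.83 to 0.18), and it passed the test without the VPA library (-0.54, adjusted p = 0.0366). SLC35A1, which carries CMP-sialic acid into the Golgi, had one of 0.26 (95% interval -0.27 to 0.78).

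Lactosamine is the acceptor of ST6GAL1 and ST6GAL2. Of 7 genes for its synthesis, 2 were higher, 2 were lower and 3 did not pass, against 53.1% of all features called. The galactosyltransferase genes B4GALT4 and B4GALT1 were those that were higher. B4GALT4 was at 111 to 132 CPM in naive and at 24.3 and 25.6 CPM in primed libraries, with a log2 fold change of 2.33 and a standard error of 0.124 (edgeR adjusted p = 7.14e-09). B4GALT1, the main enzyme for N-glycans, was at 68.0 to 86.0 CPM in naive and at 36.5 and 37.0 CPM in primed libraries, with a log2 fold change of 1.11 and a standard error of 0.128 (edgeR adjusted p = 9.69e-06). B4GALT2 and B3GNT2 were lower, and B3GNT2 missed the threshold with library totals (adjusted p = 0.0996) and without VPA (0.0594), AICAR 2 (0.0503) or primed CA-p38 (0.338).

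Of 8 genes for the branching and trimming of N-glycans, 2 were higher, 5 were lower and 1 did not pass. Over all features the share called was 53.1%. MGAT5, which starts the branch that is most often extended with lactosamine, ranged from 9.39 to 11.9 CPM in naive libraries against 34.3 and 43.5 CPM in the primed lines, a log2 fold change of -1.89 (edgeR adjusted p = 3.50e-07). MGAT4A, which starts another branch, ranged from 7.74 to 10.8 CPM against 2.97 and 2.62 CPM, a log2 fold change of 1.74 (edgeR adjusted p = 4.12e-05). All naive libraries were on one side of both primed libraries for both. Among the genes that were lower, MGAT2 and MGAT3 missed the threshold with library totals (adjusted p = 0.0517 and 0.0957). MGAT2 also missed it without either primed library (0.0856 and 0.0925), and MGAT3 without primed EOS (0.331), VPA (0.0706), CA-p38 (0.0604) or AICAR 1 (0.0729).

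Of 10 genes for the cores of gangliosides and of other glycolipids such as globosides, 2 were higher, 5 were lower and 3 did not pass. The share called over all features was 53.1%. A4GALT, which makes the globoside Gb3 known as CD77, was at 212 to 259 CPM in naive and at 5.17 and 3.699 CPM in primed libraries, with a log2 fold change of 5.73 and a standard error of 0.18 (edgeR adjusted p = 8.44e-11). B3GALT5, which extends globosides to SSEA-3, the acceptor of ST3GAL2 for SSEA-4, was at 0.890 to 1.67 CPM in naive and at 61.6 and 70.9 CPM in primed libraries. Its log2 fold change was -5.70 with a standard error of 0.207 (edgeR adjusted p = 2.63e-10). UGCG, which makes glucosylceramide, was the other gene that was higher.

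Of 7 genes for O-glycan cores, the acceptors of ST3GAL1, 2 were higher, 3 were lower and 2 did not pass. Of all features, 53.1% were called. GCNT1, which makes the branched core, was at 85.3 to 105 CPM in naive and at 9.80 and 9.95 CPM in primed libraries, with a log2 fold change of 3.24 (edgeR adjusted p = 1.09e-09). GALNT2, which starts O-glycans, was at 35.7 to 39.6 CPM in naive and at 215 and 221 CPM in primed libraries, with a log2 fold change of -2.54 (edgeR adjusted p = 4.13e-10).

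Sialidases remove sialic acid again. The lysosomal NEU1 was at 45.2 to 49.6 CPM in naive and at 30.9 and 35.3 CPM in primed libraries, with a log2 fold change of 0.50 (edgeR adjusted p = 0.00383), which missed the threshold without primed EOS (0.39, adjusted p = 0.0627). The plasma membrane enzyme NEU3 was at 8.29 to 10.2 CPM against 26.2 and 25.5 CPM, with a log2 fold change of -1.45 (edgeR adjusted p = 3.45e-06). NEU2 was at 0 in all libraries and NEU4 reached at most 0.444 CPM, and neither was tested.

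CD57, a sulfated glucuronic acid epitope that is built on the same lactosamine ends and marks primed cells, was followed by its 3 enzymes. All 3 were lower in naive libraries, against 27% of all features called lower. B3GAT1, the main glucuronyltransferase, was at 0.745 to 1.88 CPM in naive and at 28.1 and 28.2 CPM in primed libraries, with a log2 fold change of -4.55 (edgeR adjusted p = 3.84e-08). CHST10, the sulfotransferase, had a log2 fold change of -2.03 (edgeR adjusted p = 1.15e-07), from 7.58 to 9.24 CPM against 33.9 and 35.5 CPM. B3GAT2, a second glucuronyltransferase, had one of -0.76 (edgeR adjusted p = 0.00703), from 6.74 to 9.88 CPM against 15.2 and 13.1 CPM, and its call was lost without primed EOS (-0.66, adjusted p = 0.0715).

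**Figure D4:**
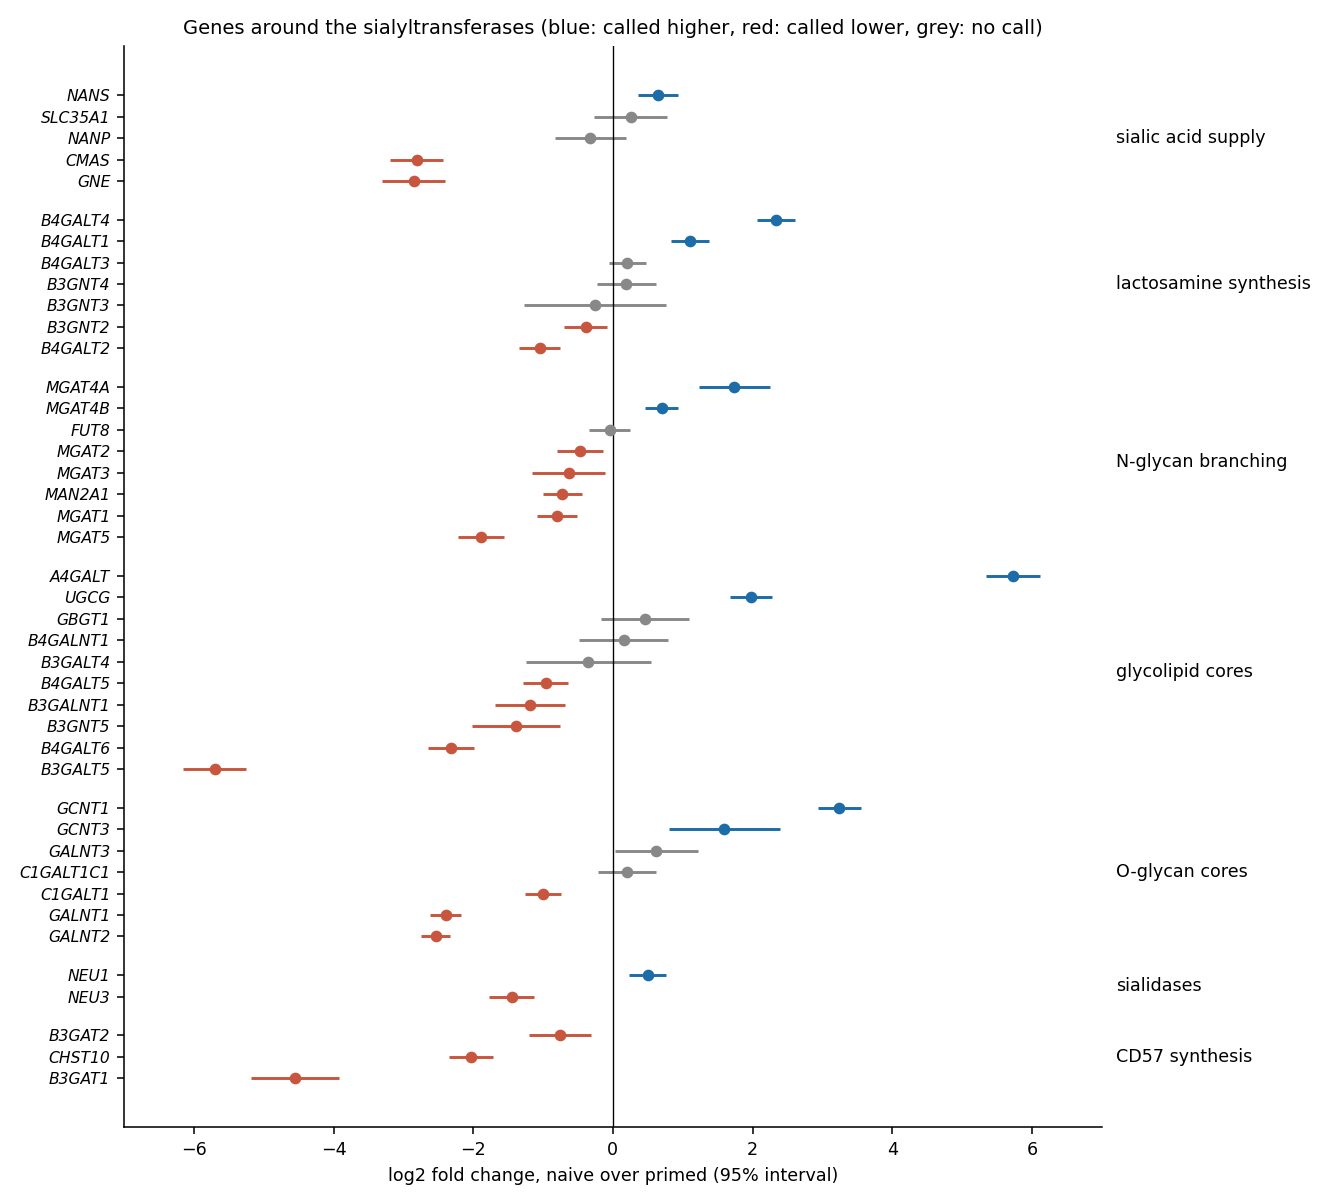
Log2 fold change of naive over primed libraries with its 95% interval from the edgeR fit, for the tested genes of 7 groups around the sialyltransferases. Blue was called higher, red lower and grey not called. GNE at -2.85 and CMAS at -2.81 stand apart from the other supply genes, and B3GAT1 is at -4.55.

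The genes whose pattern over the 6 libraries was most like that of ST6GAL1 were RIOK3, EFNA4, RPS6KL1, B3GAT3 and DFFA. Likeness was the root-mean-square difference of log2 CPM after centring each gene on its mean, among 12603 features with a mean of at least 5 CPM. The difference was 0.0390 for RIOK3, 0.0396 for EFNA4, 0.0415 for RPS6KL1, 0.0462 for B3GAT3 and 0.0488 for DFFA. RIOK3 was at 62.6 CPM in VPA, 68.9 in CA-p38, and 60.4 and 66.5 in AICAR 1 and AICAR 2 naive cells, and the primed lines were at 35.9 (EOS) and 34.4 CPM (CA-p38). B3GAT3 encodes a glucuronyltransferase of the linker of proteoglycans. The points are 6 libraries in 2 states, so this is a description of the step between the states.

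Markers were read for the labelled states and for other cells. The summed level of 4 naive and sort markers (SUSD2, KLF17, DPPA5 and DPPA3) was 1443 to 1718 CPM in naive and 2.08 to 3.94 CPM in primed libraries. SUSD2, an antigen of the sort, held 427 to 668 CPM of it in naive libraries. KLF17, DPPA5 and DPPA3, not used in the sort, were at 13.5 to 31.2, 604 to 640 and 342 to 427 CPM there. In primed libraries each of them was at most 0.666 CPM. The sum of 4 primed markers (SFRP2, DUSP6, ZIC2 and CD24) was 30.2 to 41.5 CPM in naive and 1914 to 2396 CPM in primed libraries. The summed level of 7 fibroblast markers was 38.2 to 77.2 CPM in naive and 181 to 200.03 CPM in primed libraries, with 0 of the 7 higher and 3 lower in naive libraries. The lower ones were COL1A1, COL1A2 and POSTN, and primed EOS held 59.9 CPM of COL1A1 and 123 CPM of COL1A2. Without a call, naive means lay above primed means for COL3A1 (8.08 against 3.47 CPM), DCN (0.987 against 0.538) and LUM (0.370 against 0.081). COL6A3, also not called, was at 6.27 against 6.90 CPM. The summed level of 7 trophoblast markers was 17.0 to 18.0 CPM in naive and 4.06 to 5.37 CPM in primed libraries, with 4 higher, 0 lower, and VGLL1 too low to be tested. LUM and POSTN were at 0 in at least 1 naive library. The part of other cells, and of mouse feeder RNA, in the sialyltransferase levels was not tested. Bulk RNA also cannot tell fewer cells with a transcript apart from less transcript per cell. Library totals ran from 46823699 to 54277064 counts, at which 3 counts amount to 0.0553 to 0.0641 CPM, and every one of the 10 genes had at least 20 counts in each library.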

How the data were processed

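The authors deposited a table of raw counts per Ensembl gene identifier. Per the labels and the study's methods, polyA RNA was sequenced, adapters were trimmed with cutadapt 1.15 through Trim Galore 0.4.4, reads were aligned with Bowtie2 to the cDNA and noncoding RNA of Ensembl GRCh38, and alignments that passed a mapping quality minimum were summed per gene. Reads that fit several transcripts equally well can be lost there, so levels of genes with many isoforms may be low. RPKM and voom values named in the sources are not in the table. A further 23 columns of other studies were not used.

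Here 26 spike-in sequences were left out of 61222 rows, and identifiers that share a name were summed to 48183 features. Each of the 10 genes had 1 identifier. edgeR 4.0.16 in R 4.3.3 (filterByExpr by state, TMM, glmQLFit, glmQLFTest) compared 4 naive with 2 primed libraries over 26497 features without covariates. The code was checked on simulated counts with the same dispersion for all genes. There it called 26.9% of 93 genes changed by a log2 fold of 1 and 100% of 107 changed by 2, with 7 false calls. Only these of 25545 genes tested were changed, against 53.1% of features called in the real data. The adjusted threshold was therefore stricter in the simulation, and the recovered shares do not carry over to the real test. Intervals of the fit are at 95%. Log2 folds over the own primed library used a prior count of 0.5, and their binomial (Clopper-Pearson) intervals cover counting error only. Lengths and positions came from GENCODE on GRCh38, the build of the files. All naive libraries were kept as separate. They differed from each other by more than counting error, with a mean chi-square per gene of 20.5 to 37.2 over the pairs. It was 21.7 between the 2 AICAR libraries. Only library totals were used as scaling there, and such a difference does not show that cultures were independent. DESeq2 1.42.0 and limma 3.58.1 were alternatives. Python 3.11.15 with pandas 2.3.3 and scipy 1.17.1 did the rest.

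The 10 genes and the gene lists were chosen with earlier results of these data known. In each list the 2 genes with the largest absolute log2 fold change among those that passed are given with values, and all genes in lists of up to 5.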

Additional observations from a re-analysis of the deposited data

Results flagged for a closer look

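ST8SIA1 did not pass the test between the states, and its value over the own primed library had a different sign in the 2 parental lines. Its log2 fold over the own primed library was -0.26 for CA-p38 (95% binomial interval -0.56 to 0.03, which includes 0), while AICAR 1, AICAR 2 and VPA were at 0.46, 0.75 and 0.94 over primed EOS. The line with the negative value has 1 naive and 1 primed library, and the difference between the lines was not tested. The naive levels of CA-p38 and AICAR 1 were close, at 3.52 and 3.79 CPM, whereas primed EOS at 2.75 CPM was below primed CA-p38 at 4.23 CPM. The 3 EOS values share that primed library.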

How the results depend on the processing

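The naive against primed comparison was repeated under 15 alternatives (2 other scalings, 2 other tests, 2 other filters, identifiers not summed, the parental line as a term, the AICAR libraries summed, and each of the 6 libraries left out). ST6GAL1 stayed higher (log2 fold change 0.77 to 0.91) and ST6GAL2 (-5.00 to -4.60), ST3GAL2 (-0.68 to -0.48) and ST6GALNAC6 (-1.11 to -0.69) stayed lower in all of them. With library totals in place of TMM, 2 of the 10 genes were higher, since ST3GAL4 then passed at 0.44 (edgeR adjusted p = 0.0332, range over alternatives 0.0332 to 0.479). ST3GAL3 missed the threshold only without primed EOS (-0.85, adjusted p = 0.0544, lowest 0.000156). ST3GAL5, never called, changed sign with library totals (0.0049), without AICAR 1 (0.0319) and without primed EOS (0.1043), within a range from -0.2755 to 0.1043 over the libraries left out. Of the called genes of the other lists, B3GNT2, MGAT2, MGAT3, NEU1 and B3GAT2 lost the call under 1 or more alternatives, with no change of sign. NEU1 also missed it when identifiers were not summed (adjusted p = 0.0734). With the parental line as a term, all 10 calls were as before and B3GNT2 missed the threshold (adjusted p = 0.0695). When 1 primed library was left out, the lone primed library was assumed to vary like the naive ones. The ST6GAL1 share without length correction was 66.8% in naive and 43.7% in primed libraries. The alternative with the longest transcript, chosen for the share after seeing the data, gave 64.5% and 43.3%. The cause of these changes was not tested.

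The labels give the primed and naive libraries no shared replicate numbers, so the parental line was the only term that tied them together. With 2 primed libraries of different lines, spread within the primed state is poorly known. At the 167 to 291 counts of ST3GAL5 per library, the 95% interval of its log2 fold change ran from -0.74 to 0.54.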
